A study of Mus musculus with 6 samples.

Results

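Forkhead transcription factors were followed in RNAseq of mouse lung endothelial cells (ECs) after sham operation and 7 days after unilateral pneumonectomy (PNX). The members were the gene symbols made of Fox, a letter from a to s and a number, with Foxm1 left out. They came to 43 of 24063 symbols, and to 56 of 33068 transcripts. By a site for which each is known, 5 members were taken as endothelial, 5 as mesenchymal, 8 as epithelial, 1 as lymphoid and 9 as broadly expressed. Foxo1 and Foxp1 were put with the endothelial members for their known roles in vessels, although both are widely expressed. The remaining 15 are known mainly from other tissues or from the embryo.

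Each group held 3 libraries of ECs from male C57BL6 mice, which the labels give as 8 weeks old, and each library pooled 2 mice. The PNX mice had lost the left lung 7 days earlier, whereas the sham mice had the chest opened and kept both lungs. Cells were taken from lung with anti-CD31 magnetic beads, and no allele or agent other than the operation is given for either group. Replicates 1 and 2 of both groups are marked as re-used from an earlier record (the earlier deposit), whereas replicate 3 is not (the later deposit). Total counts were 65763553 to 81282871 in the earlier deposit, against 33374216 (sham) and 29526989 (PNX) in the later one. Replicates 1 and 2 differed by little more than counting error. Counting error alone gives a chi-square of about 1 per degree of freedom, and this pair gave 1.75 in sham and 1.57 in PNX, whereas pairs with replicate 3 gave 67.9 to 86.4. They were therefore summed and counted as 1 sample, which left 2 samples per group. Because nothing says how far the pools were separate cultures or days, the p-values measure the spread between these samples only. All 10 endothelial markers were detected, with summed levels of 8660 to 11049 CPM (the count scaled by library size) in sham and 8062 to 9106 CPM after PNX. Markers of other cells were present too. Summed alveolar type 2 markers were at 5553 to 5958 CPM in sham and 2150 to 3580 CPM after PNX. Fibroblast markers went the other way, from 3750 to 6316 CPM in sham and 15283 to 20840 CPM after PNX. Macrophage markers were at 324 to 683 and 830 to 1094 CPM, and B cell markers at 185 to 245 and 121 to 174 CPM.

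Forkhead proteins bind DNA through a winged-helix domain that reads a short core motif, GTAAACA. FOXF1 and FOXC proteins act in vessel and mesenchyme development, and FOXF1 is essential for the lung microvasculature. FOXO proteins hold cells in quiescence and are driven out of the nucleus when AKT phosphorylates them. FOXA1 and FOXA2 open chromatin in lung epithelium, FOXJ1 switches on motile cilia, and FOXP3 defines regulatory T cells. In the bulk RNA of a bead selection, fewer cells of a type and less RNA per cell cannot be told apart.

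Promoter sequences are shown for 3 members whose levels differed after PNX with the replicate block described below, so that a search for the family's own motif can be read beside the values. Of the 43 members, 28 matched a RefSeq promoter on GRCm38.p6, with 33 promoters running from 250 bases before to 50 bases after the start. Of the 8 members lower with the block, Foxj1, Foxp2, Foxo4 and Foxk1 had no entry. The windows printed here stop short of the start. The Foxa1 window is chr12:57546132-57546361 on the minus strand, which lies in an intron of a longer Foxa1 transcript of GENCODE vM21. The Foxa2 window is chr2:148046990-148047219 on the minus strand, the most upstream of its 3 listed starts. The Foxo1 window is chr3:52268087-52268316 on the plus strand. All are written 5′ to 3′ on the strand of the gene, with the forkhead core in capitals where it occurs.
Foxa1: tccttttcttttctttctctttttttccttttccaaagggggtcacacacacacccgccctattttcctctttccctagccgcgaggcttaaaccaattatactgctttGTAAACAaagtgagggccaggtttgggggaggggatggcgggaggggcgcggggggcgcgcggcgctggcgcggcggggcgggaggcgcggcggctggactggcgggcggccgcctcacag
Foxa2: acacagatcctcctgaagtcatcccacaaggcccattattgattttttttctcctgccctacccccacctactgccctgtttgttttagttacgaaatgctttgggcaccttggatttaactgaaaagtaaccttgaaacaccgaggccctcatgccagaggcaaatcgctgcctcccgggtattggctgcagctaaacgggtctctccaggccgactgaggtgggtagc
Foxo1: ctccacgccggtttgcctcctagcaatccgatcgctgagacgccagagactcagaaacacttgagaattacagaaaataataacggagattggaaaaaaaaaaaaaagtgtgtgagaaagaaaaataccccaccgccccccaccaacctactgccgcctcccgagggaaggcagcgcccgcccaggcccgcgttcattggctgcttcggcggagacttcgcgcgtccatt
The search read GTAAACA on both strands, and separately the longer FOXO element GTAAACAA, which contains the core. The core was in 3.65% of 32851 mouse promoters of this length and in 1 of the 33 promoters of members. The longer element was in 1.23% of all promoters and in the same member promoter. That promoter was Foxa1, with the match starting 141 bases before the start, on the gene's own strand. The promoters of members were richer in G and C than promoters in general, with a median of 62.7% GC and 22 CpG against 52.7% GC and 7 CpG. These are letter matches and compositions, not measured binding.

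Levels were compared between members in TPM, which scales by transcript length as well as by library, for the transcript of each gene with the highest count. Means and SDs of TPM, and of ratios of TPM, are over 3 libraries, with replicates 1 and 2 counted apart. They thus lean to the earlier deposit and do not measure the spread between the 2 samples of a group. Foxf1 was by far the most abundant member. It stood at 376 ± 95.2 TPM in sham and 283 ± 21.1 TPM after PNX (SD, n = 3 libraries), which was 51.4% ± 6.0 of the summed forkhead TPM in sham and 49.2% ± 0.78 after PNX. Foxp1, a repressor that is widely expressed and needed for vascular and lymphoid development, was second with 64.3 ± 8.6 TPM in sham and 59.4 ± 7.5 TPM after PNX. Neither of their sham ranges overlapped that of the next gene.
Below them Foxo1 (30.04 ± 1.99 TPM), Foxk1 (29.6 ± 3.4 TPM) and Foxo4 (27.7 ± 3.5 TPM) had overlapping sham levels. The next 8 members in sham, from Foxj2 at 22.3 ± 0.54 TPM down to Foxo3 at 17.2 ± 1.3 TPM, could hardly be ordered, since only Foxj2 at their head and Foxo3 at their foot stood clear of the gene below. This stretch holds Foxj1 at 20.4 ± 2.2 TPM and Foxf2 at 17.6 ± 2.0 TPM, an epithelial and a mesenchymal gene at the level of broadly expressed ones. Foxp4 followed at 12.1 ± 1.6 TPM.
The other epithelial and lymphoid members were lower, with Foxa2 at 7.25 ± 2.1, Foxa1 at 6.39 ± 0.55 and Foxp3 at 4.22 ± 0.48 TPM in sham. The endothelial members Foxc1 and Foxc2 were at only 2.20 ± 0.10 and 0.96 ± 0.36 TPM. After PNX, Foxj1 moved from rank 8 to rank 14 of the family, the largest shift of rank among the first 20 genes, at 9.61 ± 0.99 TPM.

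**Figure D1:**
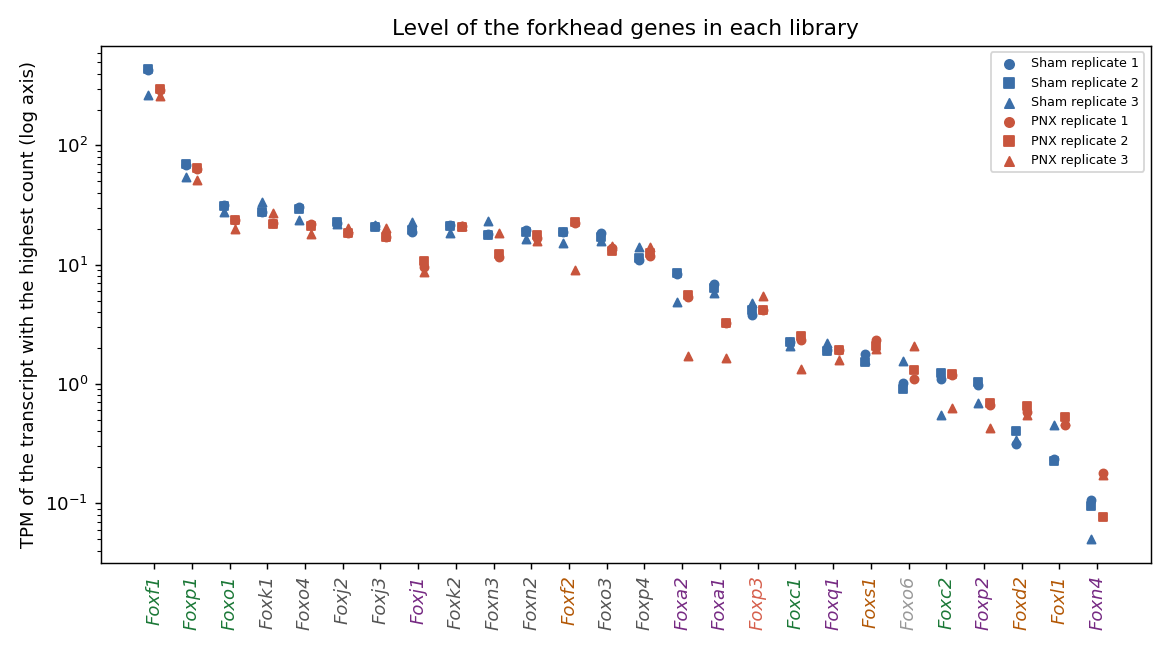
TPM of the transcript with the highest count (log axis) for the 26 forkhead genes with a mean of at least 50 counts or 10 counts in a library, 1 point per library, with gene names coloured by class (green endothelial, grey broad, orange mesenchymal, purple epithelial, red lymphoid, pale grey other). Foxf1 lies between 259 and 434 TPM, above every other member in every library.

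Low members were many. Of the 43, 23 had a mean of at least 50 counts, 3 more reached 10 counts in some library (Foxd2, Foxl1 and Foxn4), and 17 stayed under 10 counts in every library. Among the 17, Foxb1, Foxb2, Foxe1, Foxe3, Foxi2, Foxi3 and Foxl2 were at 0 in every library, which allows up to 0.0376 to 0.101 CPM at 3 counts per library (counting error only). Foxa3, the endodermal relative of Foxa1 and Foxa2, had 0 to 6 counts, and Foxi1, a marker of ionocytes, had 0 or 1. Foxd1, known from lung and kidney stroma, had 0 to 4, Foxr1 had 2 to 4 and Foxd4 had 1 to 9. The rest of the 17 had no more than 2. The filter on low counts passed 27 members, and 16 of the 17 near-absent genes were not tested.

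PNX was compared with sham over all 16598 genes passing the filter with edgeR's quasi-likelihood test, in CPM scaled by TMM. The study's rule calls a gene that changed by more than 1 on the log2 scale with an adjusted p under 0.01. A second rule is an adjusted p under 0.05. With 4 samples and no block, 0 of 27 members passed either rule, as did 0.00% of all genes. At an unadjusted p under 0.05 there were 2076 genes, 3 of them members (Foxa1, Foxj1 and Foxo1), and limma-voom also called 0 members. DESeq2 on the same samples called 1 member by the study's rule, Foxj1, which was lower, against 0.520% of all genes called lower. The same test with the deposit as a replicate block, which compares PNX with sham within each deposit and has 1 residual degree of freedom, called 2 members by the study's rule, Foxa1 and Foxj1. Both were lower after PNX, against 1.23% of all genes called lower and 3.89% called higher. Without PNX replicate 1 this rule called 0 members, and without sham replicate 1 it called Foxj1 alone, as it did under each of 3 other scalings. At an adjusted p under 0.05 the block found 8 members lower and 0 higher, against a background of 10.1% of genes lower and 11.5% higher. On simulated data this fit found 185 of 200 genes changed by 1 on the log2 scale, but also called 46 unchanged genes. Smaller changes were not simulated. The 8 were Foxa1, Foxa2, Foxj1, Foxp2, Foxo1, Foxo4, Foxn3 and Foxk1. They are 4 of the 6 tested epithelial members, 1 of 5 endothelial (Foxo1) and 3 of 9 broadly expressed members. At this cut-off DESeq2 with the block found 5 of these 8, all lower, as were 1088 of 16739 genes. It did not find Foxk1, Foxn3 or Foxp2. By the study's rule it called 3 members, Foxa1, Foxa2 and Foxj1, all lower, as were 210 genes. In edgeR with the 6 libraries as separate replicates the study's rule called Foxj1 alone (background 0.240% of genes lower), and no member once any 1 library was left out. In that fit Foxa1 and Foxj1 had an adjusted p under 0.05 and were lower (background 5.12% lower). DESeq2 on the 6 libraries called Foxa1 and Foxj1 by the study's rule, both lower, as were 240 of 17120 genes. There 6 members had an adjusted p under 0.05, all lower, as were 1576 genes. They were Foxa1, Foxj1, Foxj2, Foxo1, Foxo3 and Foxo4. The median log2 fold change of the 27 members was -0.17 (-0.18 with the block), against -0.01 for all genes in both fits.

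The lowest adjusted p among the members was that of Foxj1, the master regulator of motile cilia, whose level fell to 0.527 of sham in the earlier deposit and 0.380 in the later one. Foxj1 (chr11:116330704-116335399) was at 19.4, 19.99 and 23.4 CPM in sham replicates 1 to 3 and at 9.82, 11.0 and 8.89 CPM in the PNX replicates. Every PNX library lay below every sham library. The log2 fold change was -1.16 ± 0.18 (SE) with an adjusted p of 0.111 in edgeR without block, -1.14 ± 0.13 with the block (adjusted p 0.0015) and -1.07 ± 0.13 over 6 libraries (adjusted p 0.0058). The 95% counting intervals of the 2 ratios were 0.495 to 0.561 and 0.330 to 0.438. Against its broadly expressed relative Foxj2, the Foxj1 level in TPM went from a ratio of 0.92 ± 0.11 in sham to 0.51 ± 0.07 after PNX. Foxj2 itself was at 43.4 to 45.8 CPM in sham against 36.9 to 40.2 CPM after PNX, with an adjusted p of 0.155 with the block.

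Most genes of a list of motile cilium genes were lower in the same PNX libraries. The list also holds the regulators Rfx2, Rfx3 and Mcidas, so it is not a list of FOXJ1 targets alone. Of 18 such genes tested, 14 were lower and 0 higher at an adjusted p under 0.05 with the block. The background was 10.1% of genes lower and 11.5% higher, and 0 of the 18 passed without the block. Their median log2 fold change was -1.11 with the block. The 2 lowest were Rsph4a, a radial spoke protein (-1.42 ± 0.21), and Dnah5, an outer arm dynein (-1.41 ± 0.15). The 2 highest of those with at least 50 counts did not pass, Rfx2 with 0.12 ± 0.09 and Mlf1 with -0.07 ± 0.17. A list of ciliated cell markers, of which 7 of 8 are also in the ciliary list, summed to 189 to 212 CPM in sham and 117 to 132 CPM after PNX. All 8 were lower with the block and none of them was at 0 in all libraries. Most of the sum came from Tppp3 alone, with 131 to 144 CPM per sham library and 90.2 to 109 CPM per PNX library. The log2 fold change of Tppp3 with the block was -0.48 ± 0.08. The other markers fell further, from -1.04 ± 0.16 (Rsph1) to -1.41 ± 0.15 (Dnah5). The part of cell number in the Foxj1 result was not tested.

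Foxa1 and Foxa2, the pioneer factors of lung epithelium whose promoters are printed above, were also lower with the block. Foxa1 (chr12:57540628-57546916) was at 8.81, 8.16 and 7.37 CPM in sham against 4.10, 4.11 and 2.10 CPM after PNX, with no overlap. Its log2 fold change was -1.33 ± 0.37 without block (adjusted p 0.257, edgeR) and -1.35 ± 0.20 with it (adjusted p 0.0043). The PNX level was 0.483 of sham in the earlier deposit (0.437 to 0.533) and 0.284 in the later deposit (0.212 to 0.377).
Foxa2 (chr2:148042877-148046969) differed as much between deposits as between operations. It was at 21.2, 21.6 and 12.3 CPM in sham against 13.7, 14.1 and 4.43 CPM after PNX, so that sham replicate 3 lay below PNX replicates 1 and 2. These CPM count its 3 transcripts of nearly equal counts together, so they cannot be set beside the CPM of Foxa1. Only within a deposit did the groups separate, with a PNX level of 0.651 of sham in the earlier deposit (0.590 to 0.718) and 0.353 in the later one (0.245 to 0.501). The block gave -0.97 ± 0.19 (adjusted p 0.0117, edgeR), whereas the fit without block gave -0.86 ± 0.59. DESeq2 with the block called Foxa2 by the study's rule.
Foxp2, a repressor of distal lung epithelium, was at 7.71, 8.10 and 5.44 CPM in sham against 5.30, 5.40 and 3.45 CPM after PNX. The lowest sham library exceeded the highest PNX library by little, and the log2 fold change was -0.60 ± 0.15 with the block (adjusted p 0.0269, edgeR). This call was lost in DESeq2 with the block (adjusted p 0.102) and when only the Foxp2 transcript with the highest count was used.

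The remaining epithelial members did not pass. Foxq1, an epithelial factor also found in mucous cells, was at 2.10 to 2.44 CPM in sham against 1.76 to 2.15 CPM after PNX. Foxn4, an early factor of multiciliated cells, had 2 to 10 counts in sham and 6 to 16 after PNX, too few to give a direction. Its log2 fold change was 0.68 ± 0.56 with the block (adjusted p 0.431, edgeR).

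Beside these genes, all 12 lung epithelial genes of a separate list were lower with the block at an adjusted p under 0.05. The background was 10.1% of genes lower and 11.5% higher. Without the block 0 of the 12 passed on 4 samples, and 5 did over 6 libraries. The lowest were the club cell secretoglobins Scgb1a1 (-1.50 ± 0.21) and Scgb3a2 (-1.27 ± 0.21). The least lowered were Abca3, a lipid pump of alveolar type 2 cells (-0.59 ± 0.10), and Muc1 (-0.60 ± 0.16). This list shares 6 genes with the alveolar type 2 markers and 2 with the club markers. Club markers summed to 2540 to 4586 CPM in sham and 1177 to 1213 CPM after PNX, with 7 of 7 lower with the block. Alveolar type 2 markers were lower in 8 of 8 and alveolar type 1 markers in 6 of 6, the latter at 2039 to 5196 CPM in sham and 766 to 3712 CPM after PNX. On 4 samples without the block 0 markers of these 3 lists passed. Over 6 libraries without the block 4 club, 3 alveolar type 2 and 0 alveolar type 1 markers were lower at an adjusted p under 0.05. Like Foxa2, the alveolar type 1 sum was lower in sham replicate 3 (2039 CPM) than in PNX replicates 1 and 2 (3671 and 3712 CPM). No marker in these 3 lists was at 0 in all libraries. The part of epithelial cell number in the Foxa1, Foxa2 and Foxp2 results was not tested.

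**Figure D2:**
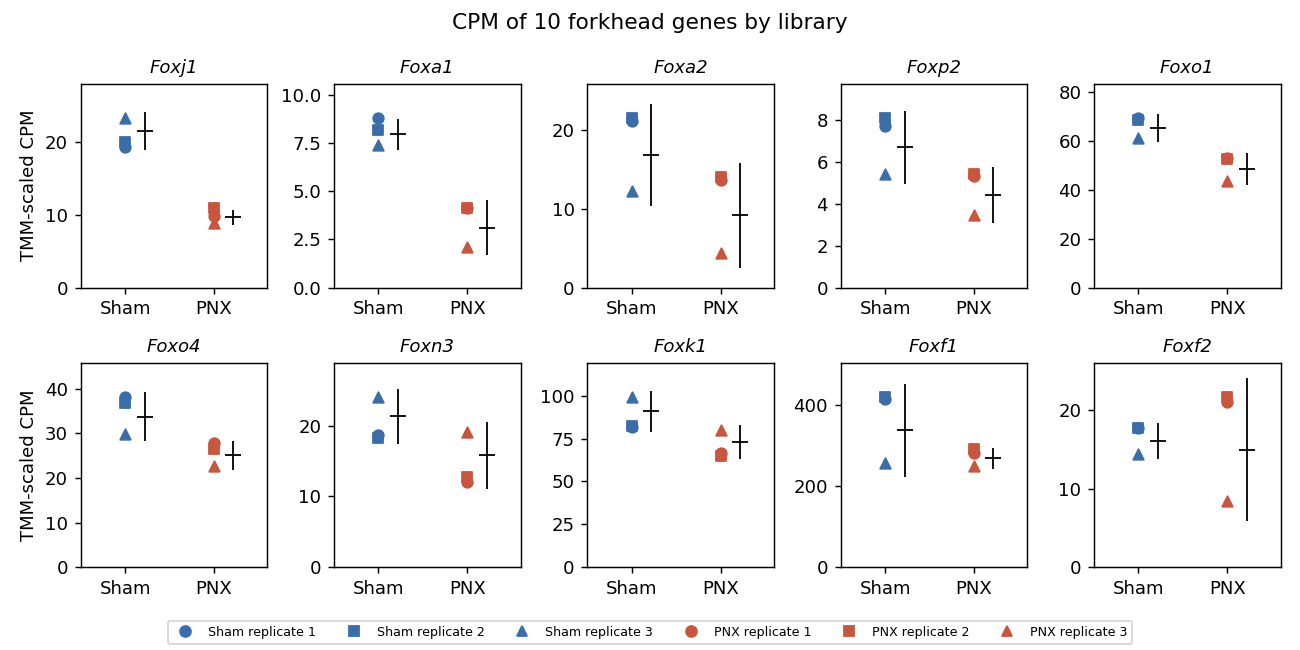
TMM-scaled CPM (axes from 0) of 10 forkhead genes, 1 point per library with blue for sham, red for PNX and triangles for replicate 3. Bars beside the points give the mean and SD of the 2 samples per group, replicates 1 and 2 counting as 1. The PNX points lie below all sham points for Foxj1, Foxa1, Foxp2, Foxo1, Foxo4 and Foxk1, whereas Foxa2, Foxn3, Foxf1 and Foxf2 do not separate.

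Of the FOXO genes, which in ECs restrain growth and metabolism, Foxo1 and Foxo4 were modestly lower with the block. Foxo1 (chr3:52268336-52353221) was at 69.5, 68.6 and 61.1 CPM in sham against 53.1, 52.7 and 43.8 CPM after PNX, with no overlap. The log2 fold change was -0.43 ± 0.16 without block (adjusted p 0.394, edgeR) and -0.43 ± 0.08 with it (adjusted p 0.0110). The ratio to sham was much alike in both deposits, 0.766 (0.743 to 0.789) and 0.716 (0.667 to 0.767).
Foxo4 (chrX:101254528-101260873) was at 38.1, 36.8 and 29.9 CPM in sham against 27.9, 26.6 and 22.7 CPM after PNX, again without overlap. It changed by the same amount, -0.43 ± 0.09 with the block (adjusted p 0.0139, edgeR).
Foxo3 (chr10:42181841-42276755), the third widely expressed member of this subfamily, was at 21.2, 19.8 and 18.2 CPM in sham against 15.9, 15.1 and 16.4 CPM after PNX. It did not overlap either, but its log2 fold change of -0.29 ± 0.11 had an adjusted p of 0.0950 with the block in edgeR. Its ratio was 0.757 (0.716 to 0.800) in the earlier deposit and 0.897 (0.795 to 1.01) in the later one. The ratio of Foxo1 to Foxo4 in TPM was 1.09 ± 0.07 in sham and 1.10 ± 0.02 after PNX. Foxo6, mainly a brain gene, was at 0.916 to 1.56 CPM in sham against 1.12 to 2.10 CPM after PNX and did not pass (log2 fold change 0.37 ± 0.24 with the block).

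Among 21 tested genes that FOXO proteins are known to activate, 6 were lower and 0 higher at an adjusted p under 0.05 with the block, beside the background of 10.1% lower and 11.5% higher. The median log2 fold change of the list was -0.12 with the block. The 6 were Txnip, Cat, Klf2, Sesn1, Angpt2 and Cdkn1b. Txnip, an inhibitor of thioredoxin and glucose uptake, was the lowest with -1.02 ± 0.12, and Cat, the enzyme catalase, was next with -0.50 ± 0.09. Txnip was at 1957, 1937 and 1065 CPM in sham against 1064, 1061 and 477 CPM after PNX, so that sham replicate 3 lay next to PNX replicates 1 and 2. The 2 highest genes of the list did not pass, Eif4ebp1 with 0.30 ± 0.10 and Gadd45a with 0.24 ± 0.11. Igfbp1 and Trim63, targets in liver and muscle, were too low to test.
Of 16 regulators of FOXO activity, 1 was higher and 3 were lower with the block, beside the background of 11.5% of genes higher and 10.1% lower. Skp2, a ubiquitin ligase subunit that marks FOXO1 for degradation, was higher (1.39 ± 0.18), at 3.97 to 5.04 CPM in sham and up to 13.6 CPM after PNX without overlap. The deacetylase Sirt1 was lowest (-0.57 ± 0.09), followed by the acetyltransferase Ep300 (-0.38 ± 0.09) and the kinase Stk4 (-0.30 ± 0.08). Ywhae, an adaptor that holds phosphorylated FOXO in the cytoplasm, had the next highest value (0.24 ± 0.09) and did not pass. RNA levels do not show where FOXO proteins were in the cell.

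The endothelial members other than Foxo1 did not pass in edgeR on 4 samples, with or without the block. Over 6 libraries with the block Foxf1 and Foxp1 had an adjusted p under 0.05 in edgeR, as did 8395 of 16263 genes. Foxf1 (chr8:121084386-121088144) was at 415, 419.8 and 257 CPM in sham against 281, 291 and 249.7 CPM after PNX. Sham replicate 3 lay below PNX replicates 1 and 2, and the groups overlapped. The log2 fold change was -0.33 ± 0.27 without block and -0.29 ± 0.13 with it (adjusted p 0.156, edgeR). The 2 deposits gave different ratios, 0.685 (0.677 to 0.694) in the earlier and 0.973 (0.943 to 1.00) in the later deposit, with counting intervals that do not overlap. These intervals cover counting error only and hold no spread between mice or pools. Summed endothelial markers were at 10969 and 11049 CPM in sham against 9028 and 9106 CPM after PNX in the earlier deposit, and at 8660 and 8062 CPM in the later deposit. Of 10 genes known to depend on FOXF1 in ECs, 5 are also endothelial markers. Of the 10, 4 were lower and 0 higher with the block, beside the background of 10.1% of genes lower and 11.5% higher. The lowest were the sphingosine receptor S1pr1 (-0.58 ± 0.11) and the angiopoietin receptor Tek (-0.51 ± 0.11), and Flt1 and Apln were the other two. The highest were Car4, a carbonic anhydrase of capillaries (0.34 ± 0.10), and Pecam1, the CD31 gene used for the selection (0.02 ± 0.13), neither of which passed.

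Foxp1 (chr6:98925338-99522721) was at 588, 595 and 460.2 CPM in sham against 541, 553 and 431 CPM after PNX, so the deposits differed more than the operations. These CPM count its 3 transcripts of nearly equal counts together, so they cannot be set beside the CPM of Foxf1. Its transcript with the highest count was at 64.3 TPM in sham and 59.4 TPM after PNX. Its log2 fold change was -0.10 ± 0.10 with the block. Its ratio to sham was 0.923 (0.908 to 0.939) and 0.936 (0.899 to 0.974) in the earlier and later deposit. Foxc1 was at 3.60, 3.59 and 3.29 CPM in sham against 3.73, 4.07 and 2.13 CPM after PNX. Foxc2, a factor of lymphatic valves, was at 1.19, 1.34 and 0.588 CPM in sham against 1.29, 1.33 and 0.676 CPM after PNX. Both overlapped, with log2 fold changes of -0.18 ± 0.22 and 0.10 ± 0.27 with the block. The 7 lymphatic markers summed to 510 to 1133 CPM in sham and 597 to 809 CPM after PNX. Of the 6 tested 2 were higher and 1 lower with the block, beside the background of 11.5% of genes higher and 10.1% lower. The later deposit was the lower one for Foxc2 and for this sum in sham, as in PNX.

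**Figure D3:**
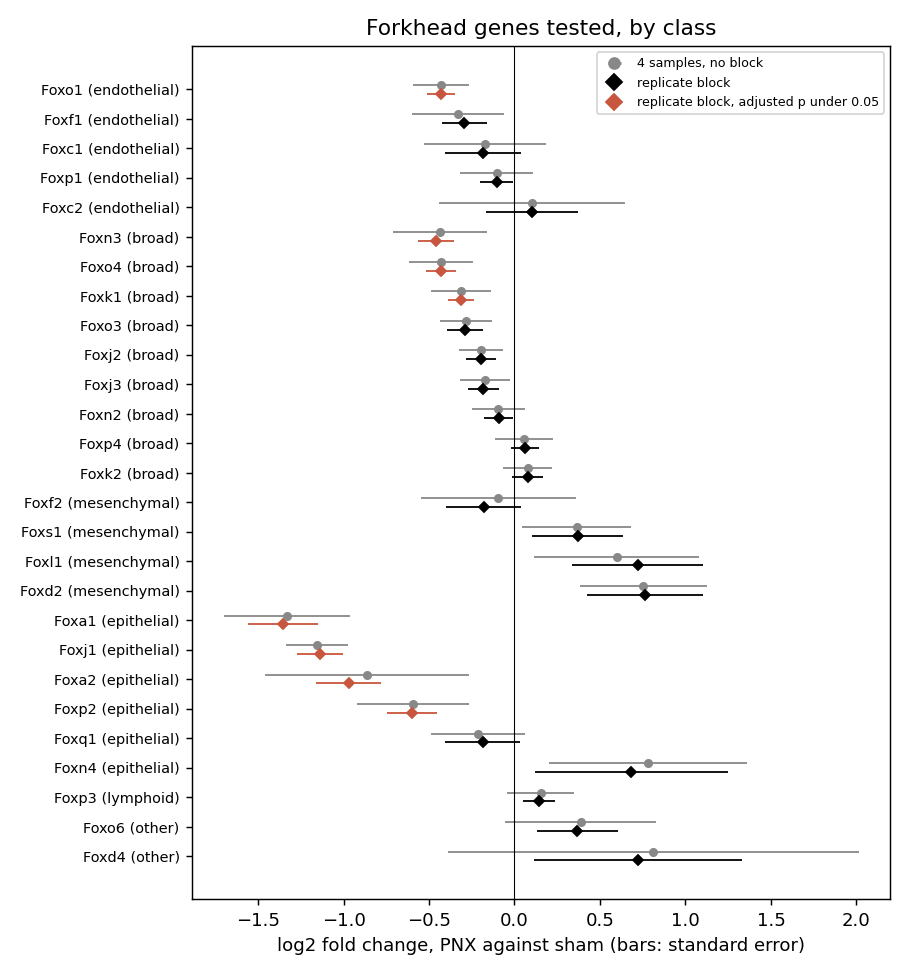
Log2 fold change of PNX against sham with its standard error for the 27 tested members, ordered by class and size. Circles give the fit without block and diamonds the fit with the replicate block, red where the adjusted p was under 0.05. The 8 red diamonds all lie below 0 and 4 of them belong to epithelial members.

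The 4 tested mesenchymal members had a median log2 fold change of 0.55 with the block on 4 samples, and none of them passed there. Foxd2 was at 0.326, 0.423 and 0.353 CPM in sham against 0.613, 0.681 and 0.575 CPM after PNX. These are 12 to 46 counts per library. Every PNX library lay above every sham library, and the log2 fold change was 0.76 ± 0.34 with the block (adjusted p 0.154, edgeR). Foxl1, which marks stromal cells that signal to epithelium, was at 0.276, 0.268 and 0.529 CPM in sham against 0.533, 0.620 and 0.575 CPM after PNX. Its groups did not overlap, by a narrow margin at sham replicate 3. The ratio was 2.11 (1.43 to 3.15) in the earlier deposit and 1.09 (0.526 to 2.24) in the later one. Foxs1, expressed in pericytes and smooth muscle, was at 0.928, 0.803 and 0.823 CPM in sham against 1.21, 1.09 and 1.01 CPM after PNX, with a log2 fold change of 0.37 ± 0.27 with the block. These 3 were the only members with all PNX libraries above all sham libraries, against 18.6% of all genes. There were 9 members with all PNX libraries below all sham libraries, against 18.0% of all genes. They were Foxa1, Foxj1, Foxj2, Foxj3, Foxk1, Foxo1, Foxo3, Foxo4 and Foxp2. Fibroblast markers, at the sums given above, were higher with the block in 8 of 10 and lower in 1, and mesothelial markers were higher in 5 of 6, with sums of 160 to 379 CPM in sham and 325 to 863 CPM after PNX. The background was 11.5% of genes higher and 10.1% lower. On 4 samples without the block 0 of these markers passed. Over 6 libraries without the block 6 fibroblast markers and 1 mesothelial marker were higher. None of these markers was at 0 in all libraries, and their part in the values of Foxd2, Foxl1 and Foxs1 was not tested.

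Foxf2, a factor of pericytes and fibroblasts, went in opposite directions in the 2 deposits. It was at 17.7, 17.7 and 14.4 CPM in sham against 21.0, 21.6 and 8.49 CPM after PNX. The PNX level was 1.21 of sham (1.14 to 1.27) in the earlier deposit and 0.590 (0.504 to 0.688) in the later one. The fitted change was near 0 for the size of its error, -0.18 ± 0.22 with the block. The summed markers of pericytes and smooth muscle moved likewise, from 460 and 464 CPM to 589 and 586 CPM in the earlier deposit and from 589 to 431 CPM in the later one. Rgs5, the only pericyte marker that passed with the block, was higher in both deposits, at 3.13, 3.25 and 3.91 CPM in sham against 13.8, 12.9 and 12.4 CPM after PNX. The fibroblast sum was also higher after PNX in both deposits, going from 6316 to 20840 CPM in the later one, where Foxf2 was lower. The part of these cells in the Foxf2 values was not tested.

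Foxf2 lies on chromosome 13 in a row of forkhead genes, whose ratios within each deposit are given here for comparison. Foxq1 (chr13:31556134-31560976), Foxf2 (chr13:31625816-31631403) and Foxc1 (chr13:31806633-31812476) are on the plus strand, with gaps of 64.8 kb and 175 kb. In the earlier deposit the PNX to sham ratios were 1.00 (0.856 to 1.18) for Foxq1, 1.21 for Foxf2 and 1.08 (0.959 to 1.22) for Foxc1. In the later deposit they were 0.721 (0.500 to 1.03), 0.590 and 0.647 (0.468 to 0.889). The intervals of Foxq1 included 1 in both deposits and that of Foxc1 in the earlier one. Only Foxk2 among the other tested members had opposite directions in the 2 deposits, at 0.982 (0.947 to 1.02) and 1.14 (1.05 to 1.24). Of the remaining members, 14 were lower in both deposits, against 39.3% of all genes, and 9 were higher in both, against 36.0%.
The row on chromosome 8 gave unlike values, none of which passed in edgeR on 4 samples. Foxf1, Foxc2 (chr8:121116171-121118895) and Foxl1 (chr8:121127940-121130644) lie on the plus strand within gaps of 28.0 kb and 9.05 kb. Their sham levels were 376, 0.96 and 0.30 TPM, and their log2 fold changes with the block were -0.29, 0.10 and 0.72. In GENCODE vM21 a read-through model, Gm20388, runs over all 3 on the same strand, so reads from it could be counted on them.

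**Figure D4:**
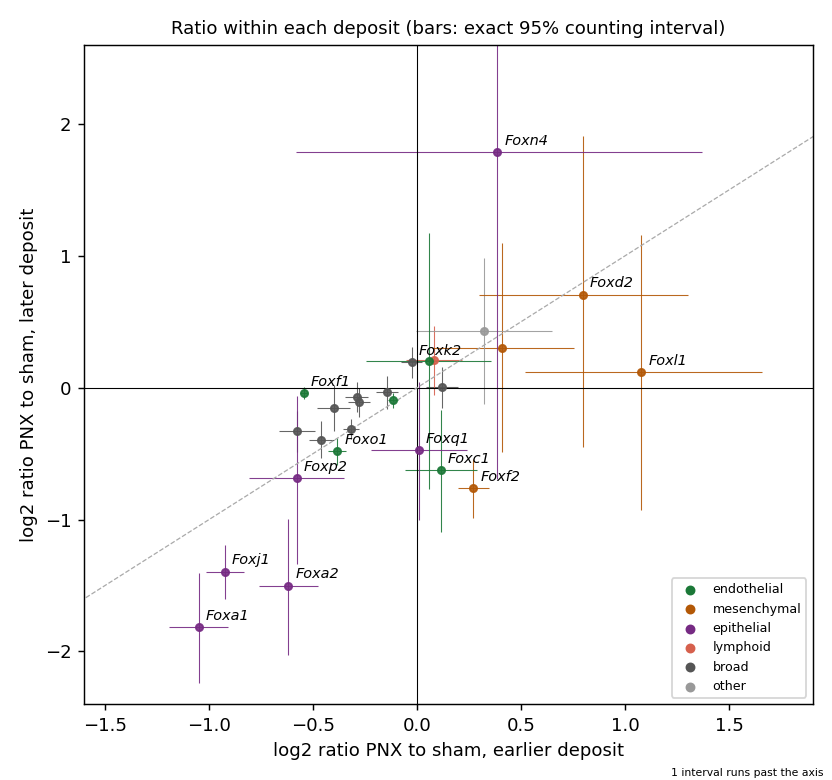
Log2 ratio of PNX to sham within the earlier deposit (horizontal axis) and the later deposit (vertical axis) for 26 forkhead genes, with exact 95% counting intervals, colours by class and a dashed line of equal ratios. Foxj1, Foxa1, Foxa2 and Foxp2 lie low in both deposits, whereas Foxf2 lies above 0 in the earlier and below 0 in the later deposit.

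Of the broadly expressed members, Foxk1 and Foxn3 were lower with the block. Foxk1, a regulator of glycolysis and autophagy, was at 81.9, 82.5 and 99.1 CPM in sham against 66.8, 65.0 and 79.9 CPM after PNX, without overlap. The ratio was 0.803 (0.782 to 0.825) in the earlier and 0.806 (0.765 to 0.850) in the later deposit, and the log2 fold change was -0.31 ± 0.08 (adjusted p 0.0299, edgeR with the block). Foxn3, a checkpoint-related repressor, was at 18.7, 18.3 and 24.0 CPM in sham against 12.1, 12.8 and 19.1 CPM after PNX. Its groups overlapped, the later deposit being the higher one in both, and its log2 fold change was -0.46 ± 0.10 with the block (adjusted p 0.0211, edgeR). Both calls were lost in DESeq2 with the block, with an adjusted p of 0.0873 for Foxk1 and 0.0530 for Foxn3. GENCODE vM21 places genes on the opposite strand over Foxn3, Foxo1, Foxp3, Foxj2, Foxj3, Foxp4 and Foxq1, and microRNA genes over Foxf1 and Foxf2. Because the strand setting of the counting is not given, their reads could be mixed. Foxp1 is overlapped on its own strand by Gm20696, a protein-coding model, so reads of these could be mixed under any strand setting. No annotated gene overlaps Foxa1, Foxa2, Foxj1, Foxk1, Foxo3 or Foxo4.
Foxk2, the close relative of Foxk1, was at 36.6 to 42.9 CPM in sham against 41.4 to 42.3 CPM after PNX, with a log2 fold change of 0.08 ± 0.09 with the block. The ratio of Foxk1 to Foxk2 in TPM was 1.48 ± 0.30 in sham and 1.14 ± 0.13 after PNX. Foxj3 was at 79.0 to 81.6 CPM in sham against 65.3 to 77.8 CPM after PNX, and did not pass (-0.18 ± 0.09). Foxn2 (-0.09 ± 0.09) and Foxp4 (0.06 ± 0.08) overlapped between groups.

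Foxp3, the factor of regulatory T cells, was detected in every library of these CD31-selected cells. It was at 17.3, 19.0 and 21.5 CPM in sham against 19.2, 19.3 and 24.9 CPM after PNX, a log2 fold change of 0.14 ± 0.09 with the block (adjusted p 0.322, edgeR). These CPM count its 3 near-identical transcripts together, and per length it was at 4.22 TPM in sham and 4.60 TPM after PNX. In GENCODE vM21 Foxp3 overlaps Ccdc22 and Ppp1r3f on the opposite strand. Of 12 genes of regulatory T cells, 1 was higher and 3 were lower with the block, beside the background of 11.5% of genes higher and 10.1% lower. Their median log2 fold change was -0.31. The cytokine Il10 was higher (2.37 ± 0.35), at 0.150, 0.296 and 1.32 CPM in sham against 1.81, 1.85 and 4.26 CPM after PNX. The lower ones were Cd3e of the T cell receptor complex (-0.65 ± 0.16), Lrrc32, which presents TGF-beta and was by far the most abundant of this list at 64.3 to 109.9 CPM (-0.59 ± 0.10), and Icos (-0.59 ± 0.12). Which cells the Lrrc32 RNA came from was not tested, so its value is not a measure of regulatory T cells. The T cell markers, of which Cd3e and Cd4 are also in this list, summed to 72.4 to 134 CPM in sham and 46.9 to 99.7 CPM after PNX. With the block 5 of 7 T cell markers were lower, and without it 0 passed, on 4 samples or over 6 libraries. The Foxp3 value was above 0 and did not pass. The T cell sum and Foxp3 were both highest in the later deposit within each group.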

How the data were processed

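The authors selected ECs from dissociated mouse lung on anti-CD31 magnetic beads, over 2 columns, made stranded mRNA libraries and sequenced paired ends. The submitters' processing notes name STAR and mm10, without a version. Not given in the sources used here are the counting rule, its strand setting and the release of the annotation. The labels give the mice as 8 weeks old, whereas the methods give an older range. The authors deposited, for each library, a count, an FPKM and a TPM for each of 33068 transcripts. The deposited FPKM values were not used. The deposited TPM values served for levels between genes only.

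Counts were summed per symbol. Transcripts of Foxp4, and nearly so those of Foxa2, Foxj3, Foxp1, Foxp2 and Foxp3, held equal counts, so a read that they share was counted on each. Their summed CPM is thus too high and their counting error too low. Counting intervals therefore use the transcript with the highest count. Total counts and the CPM sums of marker lists were also taken over all transcripts, so a shared read can count more than once in them.

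PNX was tested against sham across all genes in R 4.3.3 with edgeR 4.0.16 (TMM, filterByExpr, quasi-likelihood test). P-values were adjusted by Benjamini-Hochberg over the genes tested. DESeq2 1.42.0 and limma 3.58.1 (voom) served as alternatives. Standard errors are approximate, the log2 fold change over the root of F. The labels pair the groups by deposit. The deposit difference of sham was set against that of PNX over 13005 genes with a mean of at least 200 counts (Pearson's r = 0.755, Spearman's rho = 0.761), genes not being independent replicates. Intervals are exact (Clopper-Pearson) at 95% and, like the limit of 3 counts for a 0, cover counting error only. The tests were tried on simulated data first. There, at an adjusted p under 0.05, edgeR with the block found 185 of 200 genes changed by 1 on the log2 scale. It also called 46 unchanged genes, more than the nominal share, and DESeq2 with the block called 11. Without the block edgeR found 0 of the genes changed by 1. Changes smaller than 1 were not simulated. GENCODE vM21 (GRCm38) gave positions and overlaps, and RefSeq (GRCm38.p6) gave promoters.

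Members with a mean of at least 50 counts, or 10 counts in a library, were named with values. Of each other list the 2 highest and 2 lowest genes with at least 50 counts were named, with others where their values made them a result. The members, classes, gene lists and tests were chosen with earlier results of these data known. Sums of replicates 1 and 2 were set on the chi-square of symbols with 1 transcript. Using the replicate block together with the transcript of highest count, or with 1 library left out, was chosen after seeing the data. The lists are from general knowledge. Dnai1, Dnai2, Trac and Adgre1 of these lists were not found by these names and were not analysed here.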

Additional observations from a re-analysis of the deposited data

How the results depend on the processing

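Without the block, 0 members passed either rule under 3 other scalings, under 2 other filters, with limma-voom or with the transcript with the highest total, although without a filter on low counts 255 genes had an adjusted p under 0.05. By the study's rule, where the fit without block called 0 genes and 0 members, the replicate block called 849 genes and 2 members, 624, 646 and 629 genes with DESeq2 size factors, upper-quartile scaling and library size alone (1 member each), and 727 genes and 2 members with the transcript of highest total. The split of these calls moved with the scaling, from 645 higher and 204 lower under TMM to 540 and 84, 548 and 98, and 550 and 79. The 6 libraries gave 409 genes and 1 member, and 1104 genes and 2 members with the replicate block. DESeq2 gave 587 genes and 1 member on 4 samples, 813 and 3 with the replicate block and 927 and 2 on 6 libraries. Replicates 1 and 2 alone gave 1203 genes and 2 members, with p-values that measure a nearly technical spread. At an adjusted p under 0.05 the corresponding counts of genes and members were 3584 and 8 with the replicate block, 3196, 3360 and 3259 genes with 8 members each under the 3 scalings, 3600 and 7 with the transcript of highest total, 2148 and 2 with 6 libraries, 8395 and 15 with 6 libraries and the block, 893 and 2, 2501 and 5, and 3481 and 6 with DESeq2 in the order above, and 10432 and 19 with replicates 1 and 2 alone. Leaving out 1 library, which assumes that a lone sample varies like the others, gave 0 to 863 genes and 0 to 2 members by the study's rule, and 0 to 3552 genes and 0 to 8 members at an adjusted p under 0.05. With the block these ranges were set by PNX replicate 1, without which 485 genes and 0 members were called, and by PNX replicate 2, without which 863 genes were called. Without the block, the study's rule on 4 samples called 2 genes without PNX replicate 3 and 0 without any other library. Over 6 libraries without the block it called 517 genes and 332 genes when replicate 3 of sham or of PNX was dropped, 49 genes on dropping PNX replicate 2, and 0 for each of the others, with 0 members each time.

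Over 34 alternatives, 17 of 26 named members never changed sign. Foxf2 reversed to 0.061 with 6 libraries, 0.031 with 6 libraries and the block, 0.051 with DESeq2 on 6 libraries and 0.30 with replicates 1 and 2 alone, and ranged from -0.22 to 0.41 with 1 library left out. Foxc1 reversed to 0.14, Foxq1 to 0.034 and Foxk2 to -0.0002 with replicates 1 and 2 alone. With 1 library left out the log2 fold change ranged from -0.24 to 0.18 for Foxc1, from -0.28 to 0.46 for Foxc2, from -0.015 to 0.086 for Foxk2, from -0.027 to 0.75 for Foxo6, from -0.26 to 0.058 for Foxp1, from -0.040 to 0.29 for Foxp3 and from -0.041 to 0.23 for Foxp4. The cause of these reversals was not tested. On 4 samples in edgeR the replicate block changed no call beyond those 8 members. Over 6 libraries in edgeR it added calls at an adjusted p under 0.05 for Foxa2, Foxk1, Foxn3, Foxo1, Foxo4 and Foxp2 of these 8. Beyond the 8 it added Foxd2, Foxf1, Foxj2, Foxj3, Foxl1, Foxo3 and Foxp1. The 8 members lower with the block on 4 samples kept their sign in every alternative run. The near-absent members are limited by depth.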
